A study of Mus musculus with 2 samples.

Results

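Long-read sequencing of calf muscle yielded transcript models that the authors' annotation step placed in the class Genomic, the class it kept apart from known, partial and newly spliced models and which holds mostly models with no splice junction. All models of that class assigned to an annotated gene are described here, chosen by their deposited class and gene labels alone. Replicate 1 held 6367 such models of 76063 in all and replicate 2 held 5688 of 50032. Of these, 2 models in replicate 1 and 1 in replicate 2 lay on spike-in sequences and were set aside, which left 6365 models of 5296 genes with 25100 reads in replicate 1 and 5687 models of 4801 genes with 28392 reads in replicate 2.

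The material was gastrocnemius, a fast-twitch muscle of the calf, from male B6CASTF1/J mice, the F1 cross of C57BL/6 and CAST strains, at postnatal day 14. The labels give 1 untreated group with 2 replicates, prepared from 2 µg of RNA apiece, so the series holds no comparison between conditions. The labels give both replicates the same donor identifier and mention several males, so whether the RNA came from separate or pooled animals is not clear, and the spread between the 2 libraries may be technical. Outside the spike-ins, replicate 1 had 1094607 reads and replicate 2 had 626289, so that 1 read was 0.914 CPM, the depth-scaled count, in replicate 1 and 1.60 CPM in replicate 2. All 6 muscle fibre markers examined had reads in each library and together held 279877 CPM in replicate 1 and 246841 CPM in replicate 2. Fibroblast markers summed to 6894 CPM in replicate 1 and 2711 CPM in replicate 2, and erythroid markers to 603.9 and 1134 CPM in the same order, while macrophage markers summed to 47.5 and 33.5 CPM.

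Most messenger RNAs of a muscle fibre are spliced before they leave the nucleus, and a protein-coding gene ends in a last exon that usually carries the stop codon and the 3′ untranslated region. Cleavage and addition of a poly(A) tail follow a signal, most often AATAAA, a short way upstream of the cut. Intron retention is the release of an RNA in which a whole intron stays between its exons.

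The bases at the recorded 3′ ends are shown first, because 69.1% of Genomic reads in replicate 1 and 74.6% in replicate 2 belonged to models that end exactly on an annotated transcript end. The 30 bases up to that end are given for 9 genes, read from GENCODE transcripts on mm10, with the poly(A) signal (AATAAA or ATTAAA) in capitals where it occurs. Apobec2, Slc25a5, Mrpl30, Tnnc2, Pvalb, Esrra and Ndrg2 are among the 10 genes with most Genomic reads, and Tnnt3 and Myadml2 lead the kept introns. The 9 were chosen after their bases were seen, to show ends with and without a signal. They lie at chr17:48419231-48419260 on the minus strand for Apobec2, chrX:36798778-36798807 on the plus strand for Slc25a5, chr1:37898309-37898338 on the plus strand for Mrpl30, chr2:164777161-164777190 on the minus strand for Tnnc2, chr7:142515975-142516004 on the plus strand for Tnnt3 and chr11:120646031-120646060 on the minus strand for Myadml2. Those of Pvalb (the end in replicate 2), Esrra and Ndrg2 lie on the minus strand at chr15:78191114-78191143, chr19:6910977-6911006 and chr14:51905271-51905300.
Apobec2: atagcaacatcAATAAAggaaataagtggt
Slc25a5: aaattgaagaAATAAAaatacccaaaacca
Mrpl30: ttctcATTAAAgtgtatgttcatccagtca
Tnnc2: actggaaggAATAAAagttgacaatgtaaa
Tnnt3: ggggtctaggAATAAAgttatcagactccc
Myadml2: cagaaAATAAAaagtggatgtctggtttca
Pvalb: ctgtgataaaatacctgaaaagagaaactt
Esrra: agaaaaaaaatatactatggagctcaagta
Ndrg2: aaactatagaggaaactgaacagcattgtt

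The signal ended 13 bases before the end in Apobec2 and 19 bases before it in Mrpl30 and Myadml2. Neither motif occurs in the 30 bases of Pvalb, Esrra and Ndrg2, while the other 3 of the 10 genes with most Genomic reads, Hhatl, Fopnl and Atp5g2, hold AATAAA there. A search of the 50 bases up to every distinct Genomic end within 50 bases of an annotated end found AATAAA or ATTAAA on the gene's strand in 83.4% of 3720 ends in replicate 1 and 83.2% of 3473 in replicate 2, a window with either or both motifs counting once. Known models had it at 69.2% of their distinct ends in replicate 1 and 70.8% in replicate 2. Partial models had it at 78.6% and 79.1% of such ends, replicate 1 before replicate 2. Models with new combinations of known junctions stood at 78.9% and 80.5%, and models with a new junction at 80.1% and 80.6%. All 67483 readable annotated ends of genes with reads had it at 36.5%. On the opposite strand, 13.4% of the Genomic ends in replicate 1 and 14.3% in replicate 2 held a match, against 8.10% of all annotated ends. Known ends stood at 12.0% and 12.1% there, and the other classes between 12.3% and 13.7%. Genomic ends farther than 50 bases from any annotated end held the signal at 43.0% of 1084 readable ends in replicate 1 and 44.4% of 1053 in replicate 2. A match is a description of these letters and not a tested site.

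A different 3′ context appears where models end inside or past a gene, next to a run of A in the genome. The 10 bases before the end are in lower case and the 20 bases after it in capitals, for 3 genes whose leading model in replicate 1 ends away from any annotated end: Gm20659 at chr11:101972941-101972970, Pabpc4 at chr4:123282902-123282931 and Ebf1 at chr11:44617766-44617795, all on the plus strand of mm10.
Gm20659: attctgggccAAAAAAAAAAAAAAAAAAAA
Pabpc4: aaaagaaaagAAAAGAAGAGGAAAAAAAAA
Ebf1: tgattactacAAAAAGAAAAAAAAAAAGGC

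All 20 bases after the Gm20659 end are A, and 16 of 20 are A after the Pabpc4 and Ebf1 ends. These examples were chosen after their bases were seen. Among Genomic reads ending more than 50 bases from an annotated end whose 20 following bases could be read, 16.8% of 4089 in replicate 1 (exact 95% interval 15.7 to 17.98%) and 19.8% of 4237 in replicate 2 (18.7 to 21.1%) stood before a window with at least 10 A. The same share was 23.6% and 7.27% for partial (ISM) models, 20.5% and 13.1% for models with new combinations of known junctions (NIC) and 18.03% and 9.88% for models with a new junction (NNC), replicate 1 given before replicate 2. Of all 22766390 windows of 20 bases in the last exons of genes with Genomic reads, 5.36% were as rich in A. The readable windows covered 54.5% of the reads in question in replicate 1 and 60.4% in replicate 2, since bases were known only inside annotated exons and promoters.

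Genomic reads made up 2.34% of the reads of annotated genes in replicate 1 (exact 95% interval 2.31 to 2.37%) and 4.69% in replicate 2 (4.64 to 4.74%), or 3.51 ± 1.66% (SD, n = 2). The shallower library had the higher share, and the intervals, which cover counting error only, do not overlap. Without Apobec2, Pvalb and Slc25a5 the share was 2.26% in replicate 1 and 4.12% in replicate 2. At least 1 Genomic read was seen in 38.6% of the 13715 genes detected in replicate 1 and in 39.5% of the 12149 detected in replicate 2. The class was thinly spread, as 56.2% of models in replicate 1 and 56.3% in replicate 2 rested on 1 read, and 95.6% and 96.9% of models had 1 exon. The reads themselves were concentrated: the 10 genes with most Genomic reads held 10.5% of them in replicate 1 and 20.7% in replicate 2.

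Genomic reads occurred in 2871 genes in both libraries, which is 54.2% of the genes of replicate 1 and 59.8% of those of replicate 2. These shared genes held 76.3% of Genomic reads in replicate 1 and 84.1% in replicate 2. The leading models, those with most reads in each library, overlapped in 80.6% of the shared genes, had the same 3′ end in 57.4% and had identical coordinates in 20.8%. Protein-coding genes held 93.5% of Genomic reads in replicate 1 and 95.0% in replicate 2, yet Genomic reads were only 2.24% and 4.57% of all their reads. Genes annotated as antisense had 37.2% and 44.1% of their reads in the class, lincRNA genes 13.8% and 21.8%, and snoRNA genes 75% and 76.7%, replicate 1 before replicate 2. Processed pseudogenes were at 0.609% and 0.536%.

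Each model was placed against the annotated exons of its gene, with 5 bases of slack, in 1 of 7 structural classes. Models with 1 exon show no splicing within their span, but most reads were not recorded in introns: models touching an intron, in the 3 classes that do so, held 22.3% of Genomic reads in replicate 1 and 13.2% in replicate 2. Models inside an annotated last exon held 70.5% of Genomic reads in replicate 1 and 82.7% in replicate 2 (76.6 ± 8.66%, SD, n = 2). Models that kept at least 1 whole annotated intron held 10.1% in replicate 1 and 3.68% in replicate 2. Models inside introns held 7.81% and 7.94%, models that ran past the gene 5.25% and 2.48%, and models covering an exon and part of an intron 4.45% and 1.62%, in the same order. Several exons (1.49% and 1.03%) and exons other than the last (0.450% and 0.549%) made up the rest. Relative to all reads, kept introns stood at 2312 CPM in replicate 1 and 1669 CPM in replicate 2, and last exons at 16158 and 37494 CPM.

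**Figure D1:**
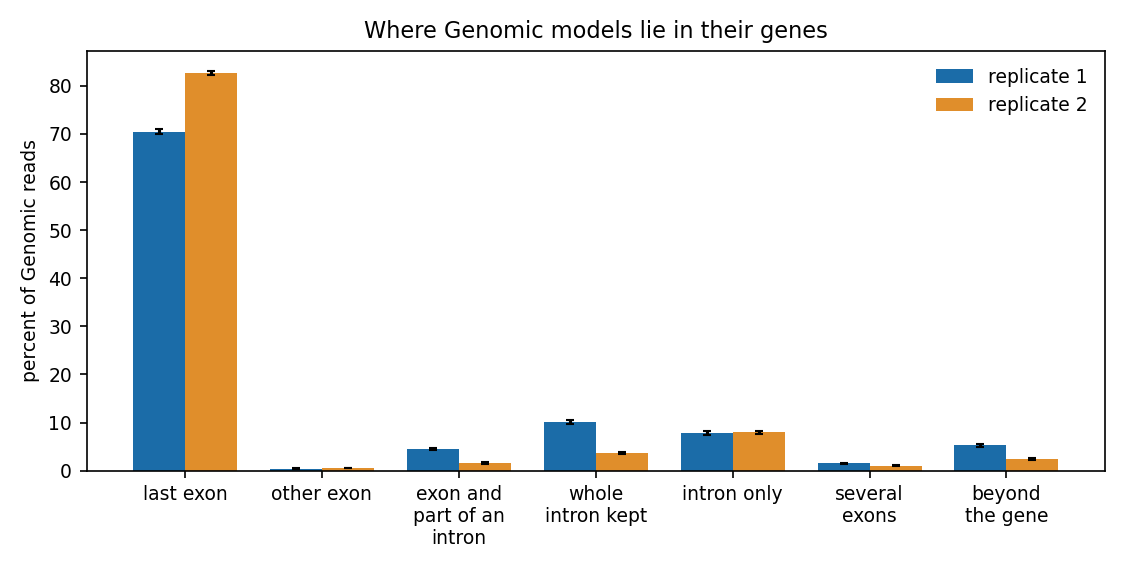
Percent of Genomic reads (vertical axis) in each of 7 structural classes, as bars for replicate 1 and replicate 2 with exact 95% counting intervals. Last exons hold 70.5% and 82.7%, and the kept-intron bar of replicate 1 stands at 10.1% against 3.68% in replicate 2.

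The recorded span of a model does not always describe its reads. Models recorded as 10 bases or shorter numbered 287 with 1668 reads in replicate 1 and 463 with 6331 reads in replicate 2, which is 6.65% and 22.3% of Genomic reads. Of those reads, 87.1% in replicate 1 and 95.2% in replicate 2 belonged to models ending exactly on an annotated end. The deposited files hold 1 span for each model and none for each read, so how far such reads reach into the gene was not measured. The median recorded length by reads was 1131 bases in replicate 1 and 273 bases in replicate 2, against 1679 and 1446 bases for known models. Among models of at least 200 recorded bases, last exons held 66.9% of reads in replicate 1 and 76.6% in replicate 2, and kept introns 12.2% and 6.39%.

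**Figure D2:**
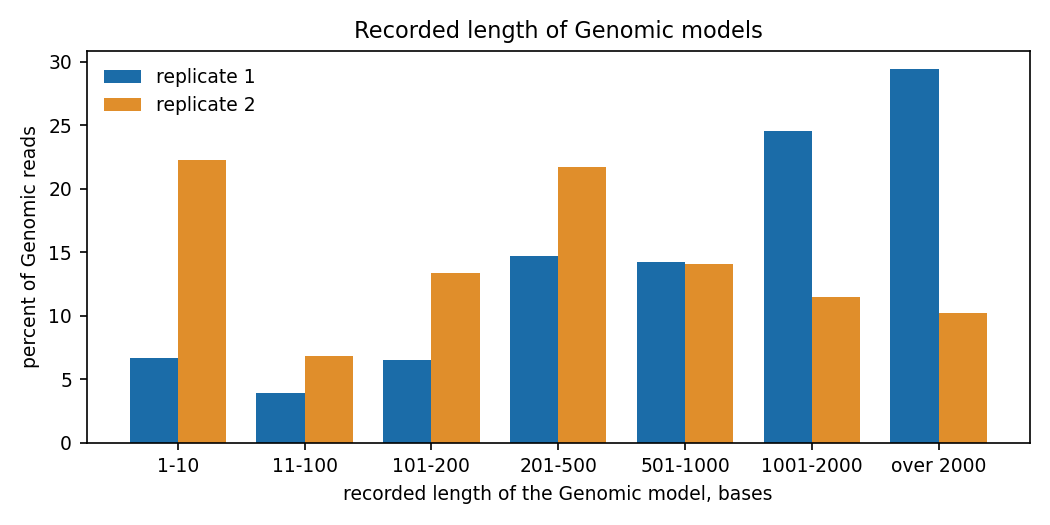
Percent of Genomic reads (vertical axis) by recorded length of their model in bases (horizontal axis), for replicate 1 and replicate 2. The shortest bin, 1 to 10 bases, holds 6.65% of reads in replicate 1 and 22.3% in replicate 2.

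The strongest gene was Apobec2, a muscle-enriched member of the APOBEC cytidine deaminase family. It had 518 Genomic reads of 1066 in replicate 1 and 2257 of 2539 in replicate 2, or 48.6% and 88.9% of its reads. Nearly all sat in 1 model recorded as the single base chr17:48419231, the end of the annotated transcript, with 514 reads in replicate 1 and 2256 in replicate 2. The mean share was 68.7 ± 28.5% (SD, n = 2). Its Genomic level was 473.2 CPM in replicate 1 and 3604 CPM in replicate 2, the highest of any gene in both libraries.

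Slc25a5, Esrra, Mrpl30 and Atp5g2, all tied to the mitochondrion, were among the 10 genes with most Genomic reads. How common such genes are among all genes was not counted. The list of nuclear oxidative phosphorylation genes, given below, had a median share of 0.0579%, against 1.24% over all tested genes. Slc25a5, an ADP/ATP carrier of the inner mitochondrial membrane, had 233 of 493 reads in the class in replicate 1 (47.3%) and 562 of 692 in replicate 2 (81.2%), all in 1 model of the last 255 bases. Mrpl30, a protein of the mitochondrial ribosome, had 120 of 204 (58.8%) and 394 of 491 (80.2%), and Atp5g2, a c subunit gene of ATP synthase, had 112 of 232 (48.3%) and 180 of 264 (68.2%), replicate 1 before replicate 2. Esrra, a nuclear receptor that drives mitochondrial genes, had 92 of 122 (75.4%) and 437 of 447 (97.8%). The leading Esrra model covers 73 bases, and all of them also lie in exons of Trmt112 on the other strand. Gadd45gip1, among the genes with the highest shares, also encodes a protein of the mitochondrial ribosome. It had 84 of 126 reads in the class in replicate 1 (66.7%) and 162 of 201 in replicate 2 (80.6%), all in 1 model of 217 bases. Every base of that model also lies in exons of a gene on the other strand. The model ends 1158 bases from the nearest annotated end of Gadd45gip1.

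The other genes among the 10 with most Genomic reads ranged widely in share. Hhatl, a homologue of hedgehog acyltransferase abundant in muscle, had 114 of 562 reads in replicate 1 (20.3%) and 383 of 578 in replicate 2 (66.3%), and Fopnl, a centrosomal protein gene, 55 of 122 (45.1%) and 231 of 268 (86.2%). Ndrg2 had 107 of 2046 (5.23%) and 264 of 1089 (24.2%). Tnnc2, fast troponin C, had 183 of 24329 and 231 of 23857, so that a large number of Genomic reads was only 0.752% and 0.968% of a very abundant transcript. Pvalb, parvalbumin, the calcium buffer of fast fibres, had 245 of 3176 reads in replicate 1 (7.71%) and 909 of 3190 in replicate 2 (28.5%). Its model differed between libraries: 244 reads in replicate 1 belonged to a 3322-base model reaching 2741 bases past the annotated end, and 908 reads in replicate 2 to a model recorded as 4 bases in the last exon.

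The genes with the highest shares, among those with at least 50 reads in each library, included several with long last exons. These were of 7412 bases in Plec, 4577 in Igfbp5, 3576 in Lynx1 and 3452 in Klf9. Others had short ones, of 411 bases in Myadml2 and 211 in Gm20659. Plec, plectin, which links intermediate filaments to other structures, had 161 of 172 reads in the class in replicate 1 (93.6%) and 62 of 69 in replicate 2 (89.9%). Klf9, a Krüppel-like transcription factor, had 185 of 212 (87.3%) and 57 of 64 (89.1%), in 1 model of 2664 bases with the same coordinates in both libraries. Igfbp5, which binds insulin-like growth factors, had 83 of 116 (71.6%) and 42 of 51 (82.4%). Its leading model lay in the last exon in replicate 1, while that of replicate 2, with 41 reads, kept a whole intron. Lynx1, a modulator of nicotinic acetylcholine receptors, had 63 of 81 (77.8%) and 56 of 69 (81.2%), and Gabarapl1, an autophagy protein gene, 65 of 91 (71.4%) and 129 of 132 (97.7%). Shares of Plec, Klf9, Igfbp5 and Lynx1 had overlapping intervals in the 2 libraries, and those of Gabarapl1 did not.

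**Figure D3:**
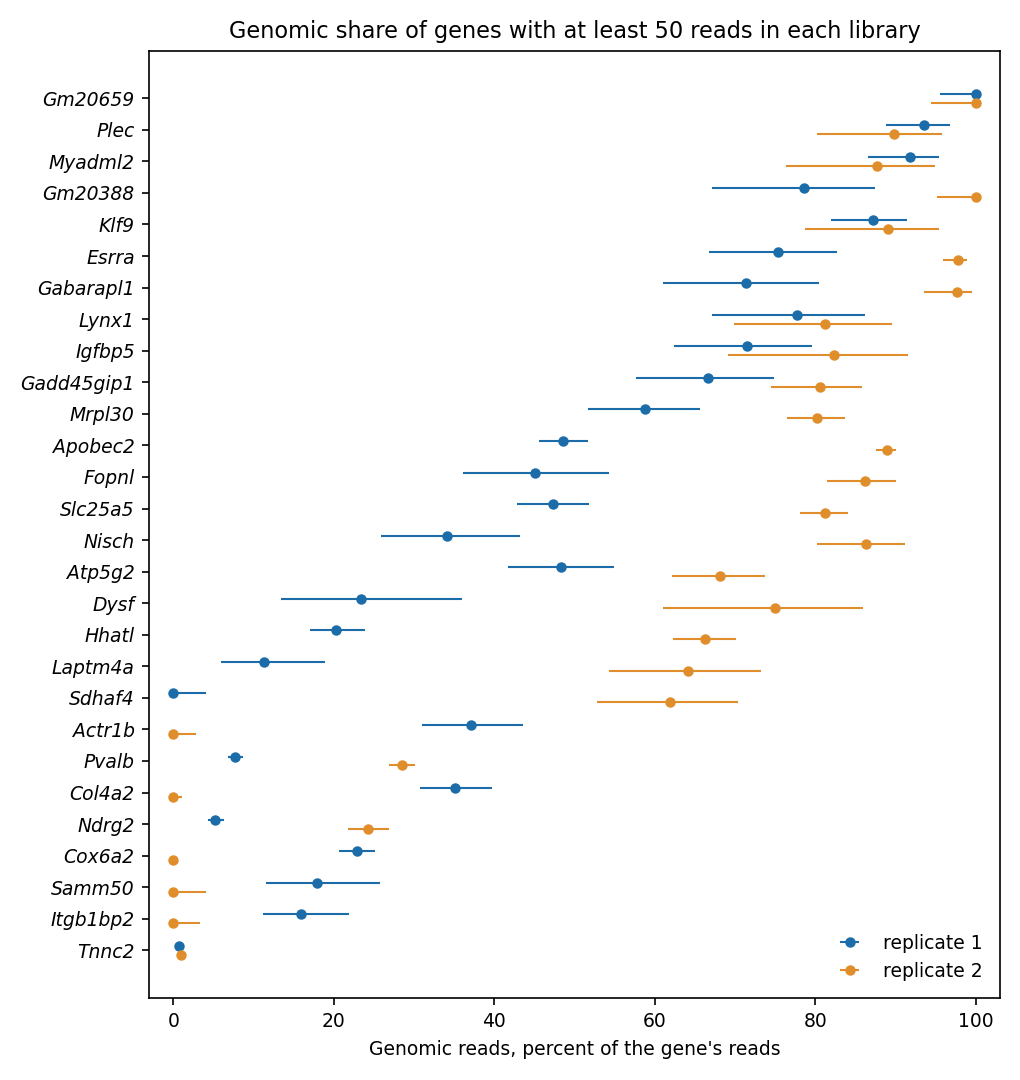
Genomic reads as a percent of each gene's reads (horizontal axis) for the genes with most Genomic reads, with the highest shares or with the largest differences, in replicate 1 and replicate 2, with exact 95% counting intervals. Gm20659 stands at 100% in both libraries, while Apobec2 stands at 48.6% in replicate 1 and 88.9% in replicate 2.

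Across genes with at least 20 reads, the median Genomic share of a gene was higher where the longest annotated last exon exceeded 1000 bases. The median gene share in replicate 1 was 0 in the bins up to 1000 bases, 0.416% for over 1000 and up to 2000 bases, 2.30% for up to 4000 and 5.79% above 4000 bases (308 genes). In replicate 2 it was 0 up to 1000 bases, then 2.53%, 3.57% and 6.53% (142 genes in the longest bin). Pooled over reads, genes with last exons above 4000 bases had 10.5% Genomic reads in replicate 1 and 12.7% in replicate 2, and those of over 250 and up to 500 bases had 0.566% and 2.41%. In that short bin Apobec2 alone carried much of the value of replicate 2, which was 1.02% without it. Hhatl did the same in the bin of 250 bases or less, where replicate 2 had 1.25% with it and 0.768% without it. The order of the pooled values was not strict in either library. Replicate 1 had 0.942% for 250 bases or less, above the 0.566% of the next bin. Replicate 2 had 4.40% for last exons of up to 1000 bases and 3.81% for the next bin of up to 2000 bases. By the mean share of a gene, replicate 1 had 4.09% for 250 bases or less. It had 1.57% for 251 to 500 bases, 2.40% for 501 to 1000 and 4.16% for 1001 to 2000. Genes in one bin also share expression level and read depth, and their part in the pattern was not tested.

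**Figure D4:**
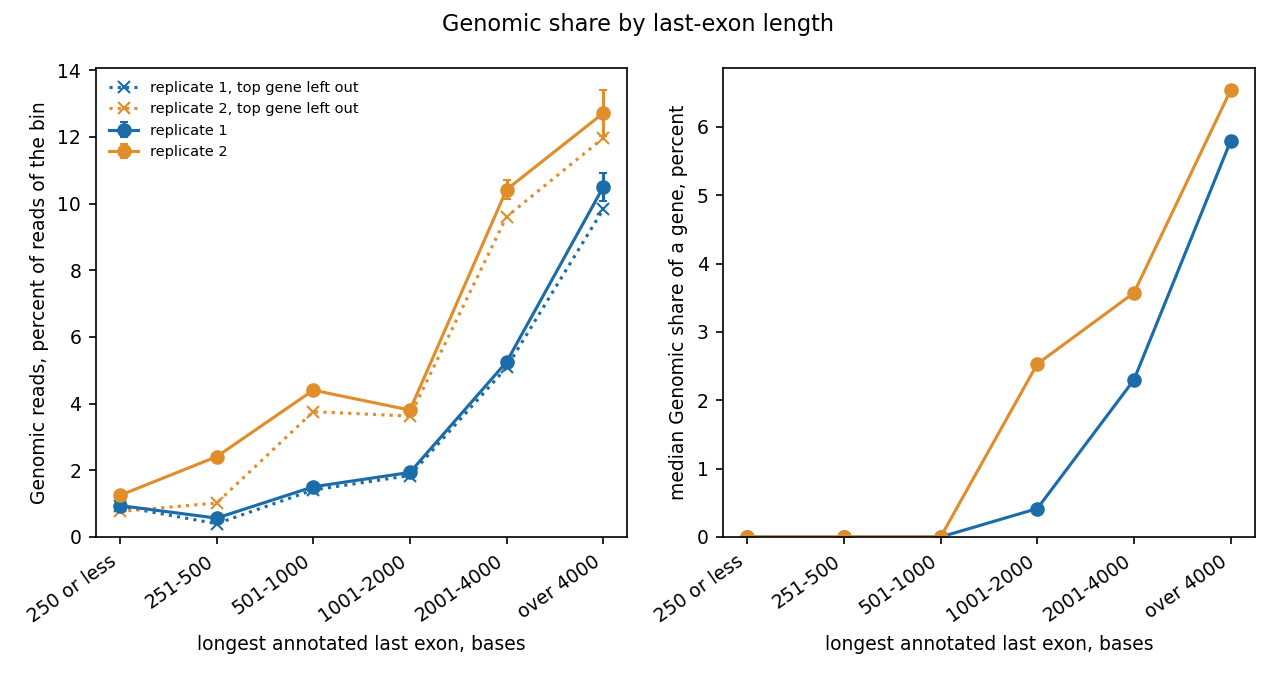
Genomic share against the longest annotated last exon in bases, pooled over the reads of a bin (left, with exact 95% counting intervals, dotted without the gene with most Genomic reads) and as the median over genes (right), for replicate 1 and replicate 2. Both libraries are highest above 4000 bases, at 10.5% and 12.7% pooled.

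Whole annotated introns were kept by 315 models of 309 genes in replicate 1 and 123 models of 123 genes in replicate 2. Counting alternative introns separately, 643 introns were kept in replicate 1 and 244 in replicate 2, and 76 introns of 47 genes were kept in both, which is 11.8% of the introns of replicate 1 and 31.1% of those of replicate 2. Kept introns were short: their median length was 377 bases in replicate 1 and 259.5 bases in replicate 2, against 1212 and 1170 bases over all annotated introns of genes with at least 20 reads. Introns of 300 bases or less were 43.7% of kept introns in replicate 1 and 53.3% in replicate 2, against 20.7% and 21.3% of all. A kept intron was the last intron of a transcript in 58.2% and 63.5% of cases, against 33.2% and 35.1% of all introns, and lay inside an exon of another annotated transcript in 25.5% and 34.0%, against 8.36% and 9.11%. No read minimum was set for the genes of kept introns, so these contrasts set unlike groups of genes side by side. A long intron cannot lie whole inside a read shorter than itself, and the part of read length in the size difference was not tested.

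Of the 4 genes with most kept-intron reads by the mean CPM of the 2 libraries, Tnnt3, Tnni2 and Myh4 encode contractile proteins. The other is Myadml2. Tnnt3, fast troponin T, had 137 Genomic reads of 1528 in replicate 1 (8.97%) and 153 of 1378 in replicate 2 (11.1%). Its leading model runs over 3420 bases in replicate 1, to the annotated end shown above, and over 2343 bases in replicate 2, to another annotated end. Both models keep the alternative introns of 2070 and 1409 bases that share their border with the last exon. Myadml2 had 156 of 170 reads in the class in replicate 1 (91.8%) and 50 of 57 in replicate 2 (87.7%), and its model reaches the annotated end and keeps the alternative introns of 1197 and 580 bases, which share the border with the last exon. Tcap, telethonin of the Z-disc, kept its 195-base intron in 77 reads of 2294 in replicate 1 (3.36%) and 37 of 913 in replicate 2 (4.05%). Tcap was chosen after its values were seen, as an intron kept in both libraries.

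Other kept introns were seen in 1 library only, often at an equal or greater read number. Tnni2, fast troponin I, had 0 Genomic reads of 4223 in replicate 1 and 209 of 2670 in replicate 2 (7.83%), in a model with introns of 77 and 132 bases that reached 1387 bases past the gene. Myh4, the heavy chain of the fastest fibres, had 1 Genomic read of 18473 in replicate 1 and 205 of 7180 in replicate 2 (2.86%), in a model of the last 3152 bases that keeps introns of 87, 86, 102 and 802 bases. Mylpf, the fast regulatory light chain, showed the reverse, with 242 reads of 23963 in replicate 1 (1.01%) in a model that keeps 6 introns and 0 reads of 19803 in replicate 2. Des, desmin, had 167 of 3978 in replicate 1 (4.20%) and 0 of 2019 in replicate 2. Mylpf and Des were named after their values were seen. A count of 0 allows up to 3 reads, or 2.74 CPM in replicate 1 and 4.79 CPM in replicate 2, so these differences are larger than counting error.

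Mybph, myosin binding protein H, is shown with the bases of 2 kept introns, as examples of the short introns counted above whose bases could be read, and was named after its values were seen. It had 40 Genomic reads of 575 in replicate 1 (6.96%) and 0 of 320 in replicate 2. The 40 reads belonged to 1 model, which also keeps introns of 1153 and 500 bases. The introns shown lie on the plus strand of mm10 at chr1:134199851-134199949 (99 bases) and chr1:134200137-134200394 (258 bases), between coding exons. The GT and AG at their borders are in capitals.
Mybph intron of 99 bases: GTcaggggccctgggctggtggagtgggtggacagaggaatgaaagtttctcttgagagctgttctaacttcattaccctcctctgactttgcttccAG
Mybph intron of 258 bases: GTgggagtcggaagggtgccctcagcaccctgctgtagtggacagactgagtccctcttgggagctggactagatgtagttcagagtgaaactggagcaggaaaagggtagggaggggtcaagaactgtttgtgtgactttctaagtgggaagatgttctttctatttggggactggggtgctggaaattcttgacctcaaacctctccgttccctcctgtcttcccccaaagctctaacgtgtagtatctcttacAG

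**Figure D5:**
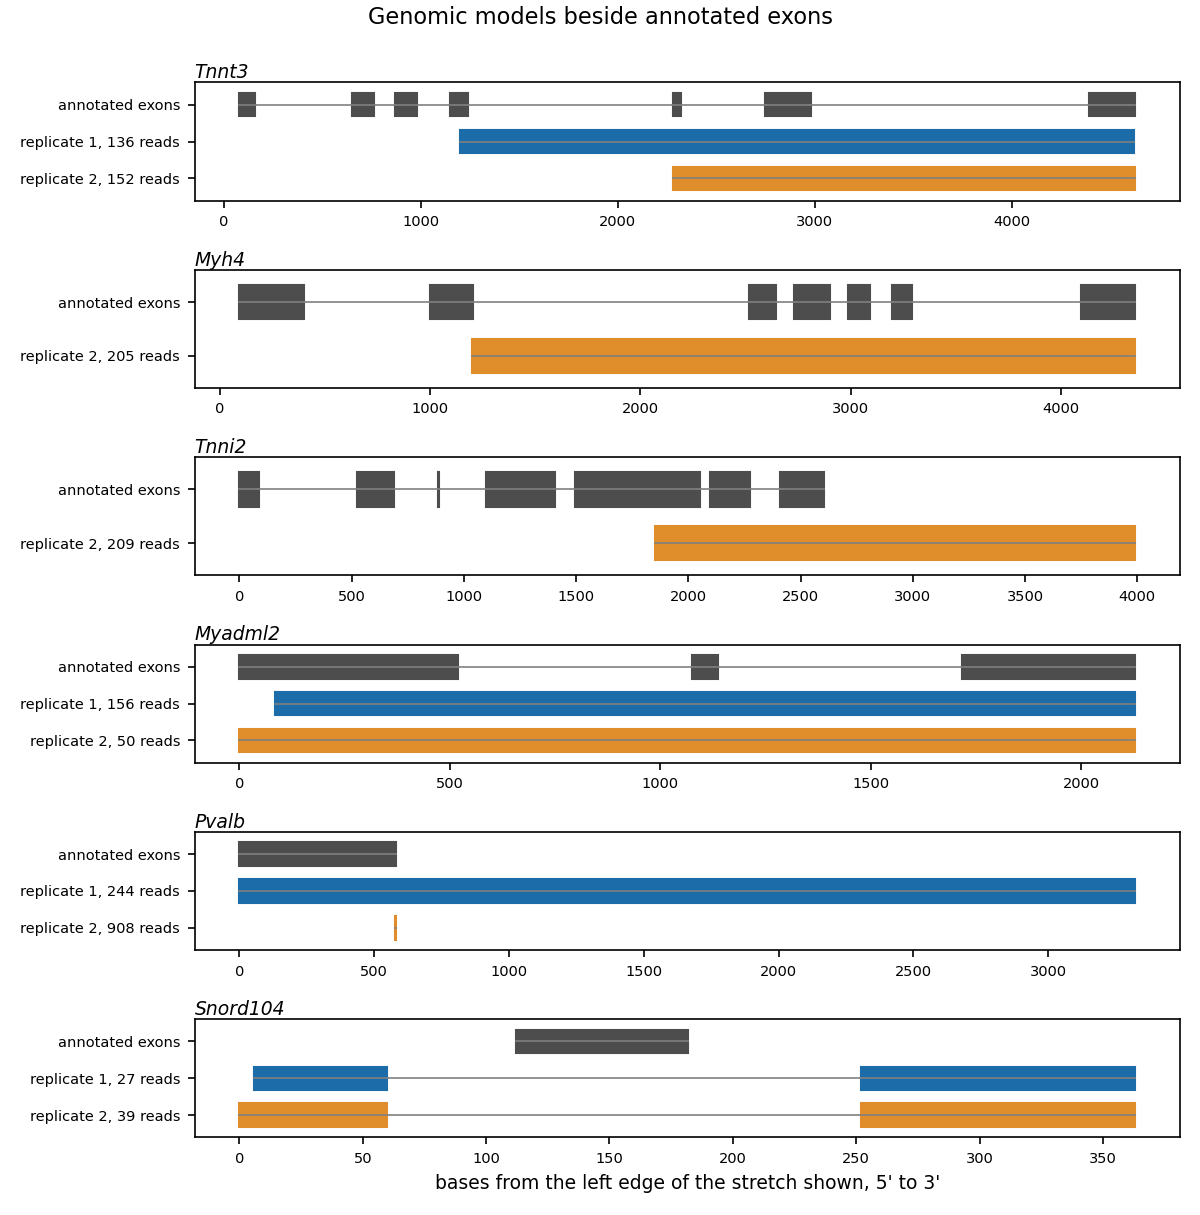
Leading Genomic models of replicate 1 (blue) and replicate 2 (orange) below the annotated exons (grey) of 6 genes, against bases from the left edge of the stretch shown. Tnnt3 and Myadml2 keep introns in both libraries, Myh4 and Tnni2 in replicate 2, Pvalb has spans of 3322 and 4 bases, and the Snord104 models pass around the snoRNA.

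By mean CPM, Fitm1, Dcun1d5, Scand1 and Myom2 led the models covering an exon and part of an intron. Fitm1 and Scand1 had such models in both libraries, Myom2 in replicate 1 and Dcun1d5 in replicate 2. Fitm1, a lipid droplet protein gene of muscle, had 35 reads of 422 in replicate 1 (8.29%) and 34 of 279 in replicate 2 (12.2%), in a 964-base model with the same coordinates in both. Scand1 had 24 of 44 (54.5%) and 29 of 47 (61.7%), with a 656-base model of the same coordinates. Myom2, an M-band protein gene, had 74 of 888 reads (8.33%) in replicate 1, in a model reaching into an intron, and 170 of 476 (35.7%) in replicate 2, in a shorter model inside the last exon. Dcun1d5 had 0 of 115 reads in replicate 1 and 51 of 100 in replicate 2.

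Intronic models were many and thin, with 1007 models of 1960 reads in replicate 1 and 971 models of 2255 reads in replicate 2, of which 79.2% and 73.8% had 1 read. Exons of another gene on the same strand were touched by models with 15.2% of these reads in both libraries. Prr33 led by the mean CPM of the 2 libraries, with 181 intronic reads in replicate 1 and 43 in replicate 2. In replicate 2, A530058N18Rik (76), Gm20388 (73) and AC154200.1 (66) had more. All Genomic reads of Prr33 were 241 of 319 in replicate 1 (75.5%) and 79 of 118 in replicate 2 (66.9%). Its leading model, of 1326 bases in replicate 1 and 95 bases in replicate 2, lies opposite the Tnnt3 locus and shares 4.60% and 18.9% of its bases with Tnnt3 exons. A530058N18Rik had 11 of 11 reads in the class in replicate 1 and 76 of 76 in replicate 2, in leading models that shared 19.7% of their bases in replicate 1 and 0.284% in replicate 2 with opposite exons of Actc1, cardiac actin, which is expressed in young skeletal muscle. AC154200.1 had 18 of 18 and 66 of 66 reads, all in a model that abuts the processed pseudogene Oaz1-ps on the same strand and shares 1 base with it. Gm20388, a locus spanning several genes, had 55 of 70 (78.6%) and 75 of 75 reads in the class. They were spread over 24 models in replicate 1 and 12 in replicate 2, and 50 and 73 of the reads were intronic. Whether reads of these loci came from the gene they were assigned to or from the neighbour was not tested.

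Overlap with exons of another gene on the opposite strand, over at least 50% of the model, was seen for 6.27% of Genomic reads in replicate 1 and 8.14% in replicate 2. Known models stood at 3.96% and 6.28%, partial models at 2.78% and 5.36%, and models with new splicing below 0.5% in both libraries. Known models have a longer median recorded length than Genomic ones, and models with new splicing have more than 1 exon. The part of length and exon number in these shares was not tested. Within the Genomic class the share was 18.1% and 20.3% for models beyond the gene, 11.5% and 12.9% for intronic models, 5.35% and 7.57% for last exons and 3.71% and 3.06% for kept introns, replicate 1 before replicate 2. Without a stated strand for the reads, those of a gene and of its opposite neighbour cannot be told apart here.

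Models beyond the gene passed its 3′ end in most cases, in 197 of 263 models in replicate 1 and 100 of 121 in replicate 2, by a median of 1165 and 1060 bases, and 87.4% and 92.6% of the reads of this class belonged to them. Gm20659 had all 82 reads in replicate 1 and all 64 in replicate 2 in 1 model of 1302 bases that passes the annotated end by 1091 bases, lies wholly within Dusp3 exons on the other strand and stops before the run of A shown above. Srl, sarcalumenin, a calcium-binding protein of the sarcoplasmic reticulum, had 3 Genomic reads of 3604 in replicate 1 and 207 of 1268 in replicate 2 (16.3%), of which 183 lay in a model reaching 3958 bases past the end. Actc1 had 0 of 3010 in replicate 1 and 89 of 1434 in replicate 2 (6.21%), 1497 bases past the end.

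Genomic models with several exons numbered 281 in replicate 1 and 178 in replicate 2, and 78 and 67 of them had no base in an exon of their own gene. Snord104, a small nucleolar RNA that guides modification of ribosomal RNA, had 27 of 32 reads in the class in replicate 1 (84.4%) and 39 of 44 in replicate 2 (88.6%). The model splices out an intron of 192 bases at chr11:106500941-106501132, and the 70-base snoRNA at chr11:106500993-106501062 lies inside that intron with 0 bases in the model's exons. Snora57 had 6 of 6 and 26 of 26 reads in a model of the same kind, with the 148-base snoRNA inside an intron of 282 bases. Over all snoRNA genes, 36 reads in replicate 1 and 66 in replicate 2 belonged to models that pass around the snoRNA. Gm13292, with 18 of 31 reads in replicate 1 (58.1%) and 11 of 22 in replicate 2 (50%), and Gm8116, with 12 of 32 (37.5%) and 3 of 37 (8.11%), had models of 2 exons that extend past the annotated gene.

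Exons other than the last held few reads. Pabpc4, a cytoplasmic poly(A)-binding protein gene, had 14 of 96 reads in replicate 1 (14.6%) and 37 of 71 in replicate 2 (52.1%), in models at the start of the gene that end before the A-rich bases shown above in replicate 1 and 3917 bases from the nearest annotated end, before a window with 14 A, in replicate 2. Naa15 had 2 of 19 and 15 of 26 reads, Gm26669 8 of 8 and 9 of 9, and Ebf1 6 of 7 and 7 of 8, replicate 1 before replicate 2. Of the Ebf1 reads, 3 in replicate 1 and 5 in replicate 2 lay in an exon other than the last. For Pabpc4 in replicate 2 it was 36 of the 37 reads. The Gm26669 models lie wholly opposite an exon of Zfp36l1.

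The only test the design allows compares the 2 libraries with each other and no conditions. Genes with at least 20 reads in each library were compared by a two-sided Fisher's exact test of Genomic against other reads, adjusted by Benjamini-Hochberg across 2767 genes, of which 1787 had Genomic reads and 980 had none. The share differed in 291 genes (10.5%), being higher in replicate 1 in 40 (1.45%) and higher in replicate 2 in 251 (9.07%). Reads are not replicates of a group, so these calls describe a difference between 2 libraries. The median share over tested genes was 0 in replicate 1 and 0.115% in replicate 2, and 35 tested genes had 50% or more in both libraries.

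The largest differences, among called genes with at least 50 reads in each library, went both ways. Higher in replicate 1 were Actr1b, an actin-related protein of dynactin, with 88 of 237 reads (37.1%) against 0 of 129 in replicate 2, and Col4a2, a basement membrane collagen, with 157 of 447 (35.1%) against 0 of 331. Cox6a2, the muscle form of a cytochrome c oxidase subunit, had 329 of 1440 (22.8%) in replicate 1 and 0 of 1611 in replicate 2 (Fisher's exact test, adjusted p = 9.6e-115). Samm50, with 22 of 123 reads in replicate 1 and 0 of 89 in replicate 2, and Itgb1bp2, with 31 of 194 and 0 of 107, complete the 5. Higher in replicate 2 were Sdhaf4, an assembly factor of succinate dehydrogenase, with 0 of 90 reads in replicate 1 and 78 of 126 in replicate 2 (61.9%), and Laptm4a, with 12 of 106 (11.3%) and 68 of 106 (64.2%). Nisch had 42 of 123 (34.1%) and 146 of 169 (86.4%) and Dysf, dysferlin of membrane repair, 14 of 60 (23.3%) and 39 of 52 (75%), replicate 1 before replicate 2. Apobec2, at 48.6% and 88.9%, was also called (adjusted p = 4.0e-138 in Fisher's exact test).

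The 11 gene lists are given beside the median of 1.24% over all tested genes, each gene taken at its mean of the 2 libraries. Their called members are given beside the 1.45% of all tested genes called higher in replicate 1 and the 9.07% called higher in replicate 2. A gene with more reads is called at a smaller difference in share, and the lists were not matched to all genes by depth. The part of depth in the counts of calls was not tested. Sarcomere and contraction genes had a median of 0.759% over 36 tested genes, with 28 of 36 members showing Genomic reads, 4 of 36 called higher in replicate 1 (1.45% over all tested genes) and 8 of 36 in replicate 2 (9.07% over all). Nuclear genes of oxidative phosphorylation had a median of 0.0579% over 26 tested, with Slc25a5 at the top and Cox7a2 at 27 of 836 reads in replicate 1 (3.23%) and 43 of 975 in replicate 2 (4.41%). Cox6a2 was among the 3 of this list called higher in replicate 1, and 3 more were called higher in replicate 2. Slc25a3, the phosphate carrier, was one of those, with 15 of 1053 reads in replicate 1 (1.42%) and 35 of 549 in replicate 2 (6.38%). Cytosolic ribosomal protein genes had a median of 0 over 20 tested genes, and 2 were called higher in replicate 2. Rpl4 was 1 of them, with 9 of 562 reads in replicate 1 (1.60%) and 56 of 277 in replicate 2 (20.2%), and Rps4x the other, with 0 of 307 and 6 of 213 reads. Of 11 mitochondrially encoded genes, which have no introns, only mt-Co1 had a Genomic read, 1 of 267 in replicate 2.

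Glycolysis and glycogen genes had a median of 0.334% over 19 tested, with 5 of 19 called higher in replicate 1 (1.45% over all tested genes) and 3 of 19 in replicate 2 (9.07% over all). Ldha, lactate dehydrogenase A, had 57 of 8431 reads in replicate 1 (0.676%), mostly in a model that keeps 2 introns, and 1 of 4525 in replicate 2. Pkm, pyruvate kinase, had 53 of 5446 (0.973%) in replicate 1 and 0 of 2196 in replicate 2. Tpi1, triosephosphate isomerase, had 69 of 3521 (1.96%) and 63 of 1646 (3.83%), ending 32 bases from an annotated end in both libraries. Calcium handling genes had a median of 1.49% over 19 tested, with 3 of 19 called higher in replicate 1 (1.45% over all tested genes) and 3 of 19 in replicate 2 (9.07% over all). Casq1, calsequestrin, had 2 of 10701 reads in replicate 1 and 93 of 4743 in replicate 2 (1.96%), there in a model recorded as 2 bases. Trdn, triadin, had 17 of 864 (1.97%) and 30 of 1055 (2.84%), in 4 models in replicate 1 and 10 in replicate 2.

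Long genes had the highest list median, 14.2% over the 7 of 22 members that were tested, and Pdlim5 was called, higher in replicate 2. Ttn, titin, had 56 of 246 reads in replicate 1 (22.8%) and 27 of 77 in replicate 2 (35.1%), and its leading models, of 5 and 1 recorded bases, lie at the annotated end. Pdlim5 had 23 of 276 (8.33%) and 24 of 120 (20.0%), and Pde4d, a cyclic AMP phosphodiesterase, 8 of 24 (33.3%) and 13 of 20 (65.0%), with a model 2501 bases past the end in both libraries. Rbfox1, a splicing regulator, had 10 of 34 and 9 of 18 reads in the class.

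Noncoding RNAs of the nuclear list had a median of 5.95%, but only 3 of 16 were deep enough to test. H19, an imprinted RNA abundant in young muscle, had 68 of 2343 reads (2.90%) in replicate 1 and 86 of 955 (9.01%) in replicate 2, and was called. Meg3 had 27 of 119 (22.7%) and 1 of 32 (3.12%), Rian 10 of 11 and 13 of 13, and Airn 5 of 6 and 0 of 7. Splicing factors with regulated introns had a median of 1.99% over 12 tested, with 1 called higher in replicate 2, which was Ddx5, an RNA helicase, at 14 of 216 (6.48%) and 31 of 101 (30.7%). Hnrnpa2b1 had 16 of 324 (4.94%) and 25 of 290 (8.62%), and Srsf2, whose own transcript is spliced in regulated forms, had 4 of 76 and 4 of 31 reads, in models that keep 1 intron in replicate 1 and 6 in replicate 2 and lie opposite Mettl23 exons over 43.2% and 14.3% of their bases. Rsrp1 had 3 of 213 and 1 of 43.

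Matrix genes of connective tissue had a median of 2.58% over 13 tested, with 1 called higher in replicate 1 and 2 in replicate 2. Sparc, a secreted matrix glycoprotein, had 107 of 1309 reads in replicate 1 (8.17%) and 74 of 479 in replicate 2 (15.4%), Col1a1, type I collagen, 105 of 4124 (2.55%) and 49 of 576 (8.51%), Col4a1, type IV collagen, 32 of 620 (5.16%) and 0 of 146, and Fmod, fibromodulin, 25 of 213 (11.7%) and 0 of 39. Genes without introns in the coding part had a median of 0.171% over 6 tested and none called, with Klhl31, a kelch-like protein of muscle, at 53 of 98 (54.1%) and 18 of 39 (46.2%). Ppp1r3a, a glycogen-binding phosphatase subunit, had 14 of 36 and 10 of 18 reads, Irs1, an adaptor of insulin signalling, 10 of 26 and 4 of 13, with models wholly opposite Gm9747, and Fbxo32, a ubiquitin ligase subunit of muscle, 9 of 44 and 2 of 10, replicate 1 before replicate 2.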

How the data were processed

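The authors deposited, for each of 2 libraries, a table of transcript models with a read count per model, not normalized, and a GTF with the model coordinates on mm10; the annotation was GENCODE M21, per the deposited readme. Which aligner and annotation tool made them is not given in the sources used here. The table also lists exon number and length of each model, taken as deposited. Models labelled Genomic in genes labelled Known were kept, spike-in rows set aside, and each model compared with the exons of its gene with 5 bases of slack, ignoring annotated introns under 50 bases. CPM used all reads outside the spike-ins (1094607 and 626289). Genomic and other reads of genes with at least 20 reads in each library were compared by Fisher's exact test with Benjamini-Hochberg adjustment and a threshold of 0.05 (scipy 1.17.1, statsmodels 0.14.6, Python 3.11.15), tested on simulated data. Intervals are exact Clopper-Pearson at 95% and cover counting error only, as does the floor of 3 reads, since reads carry no molecular identifiers. Bases were read from GENCODE transcripts laid on the genome and from RefSeq promoters (GRCm38), which never disagreed over 112143189 and 3304348 bases seen more than 1 time; no genome sequence was used, so windows outside exons were not read.

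The genes named were the 10 with most Genomic reads by mean CPM. Added to them were the 10 with the highest mean share among genes with at least 50 reads in each library. The 4 with most reads by mean CPM in each structural class and up to 4 of each of 11 gene lists were also named. So were up to 5 in each direction among called genes with at least 50 reads in each library. The members and lists were chosen with earlier results of these data known. The alternatives tried are the reads of partial models left out, other read minima, slacks, annotations, distances and tests, and each library left out. Chosen after seeing the data were the 50-base minimum for introns, the limit to readable windows, the values without the 3 genes with most Genomic reads or without the leading gene of a length bin, and those for models of at least 200 bases. Genes with fewer than 20 reads in a library were not tested. Some genes this rule names are not reported here.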

Additional observations from a re-analysis of the deposited data

Results flagged for a closer look

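Genomic-class reads were also recorded at loci outside annotated genes, which the comparisons above did not use. There were 502 such reads over 173 models in replicate 1, of which 429 lay at antisense and 73 at intergenic loci. Replicate 2 had 173 such reads over 89 models (129 and 44). These are sums over many loci, so the floor of 3 reads for a single count was not applied to them. No control sample exists to set them against.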

How the results depend on the processing

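Over 12 main results, 99 alternative values were set beside the reported one. Of these, 80 differed from it by less than the spread (SD) between the libraries, or for counts by less than 1.5 times, and 19 moved further. Values with 1 library left out are among the 80 but could not move further. A reported share is the mean of the 2 libraries, so they do not measure how stable it is. The Genomic share of reads was 6.58% as a mean over genes with at least 20 reads and ranged from 2.34 to 4.69% with either library left out. Counting models in place of reads gave 67.4% for last exons, 16.4% for introns, 3.77% for several exons and 1.13% for other exons. Models with at least 2 reads gave 5.75% for introns, 0.559% for several exons and 0.364% for other exons, and protein-coding transcripts alone gave 5.78%, 0.594% and 0.362% in that order. Introns stood at 6.62% with no slack and at 7.48% without the gene with most reads, and other exons at 0.409% without theirs and at 0.291% for models of at least 200 bases, an alternative chosen after seeing the data. A-rich ends fell to 11.5% at an A fraction of 0.6 and 10.1% at 0.7. Genes shared by both libraries numbered 1468 at 2 reads and 518 at 5. The called genes, 291 by the main test, numbered 228 to 322 under the alternatives. With a library left out, class shares ranged over the values of the 2 libraries given above. No paired analysis was possible because the series holds 1 group. The test between libraries has no value with a library left out. Depth limits genes under 20 reads, and 1 recorded span per model limits every statement on position.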
